A study of Mus musculus with 16 samples.

Results

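The 7 genes described here encode signals and proteins with which dendritic cells prime T cells: Il12a, Il12b and Il15 (cytokines), Ccl17 and Ccl22 (chemokines), Relb (a transcription factor) and Fscn1 (an actin-bundling protein). They were chosen by symbol. Each had 1 probe set naming that gene alone, so all 7 of 7 were measured, among 19938 genes in all. Expression was measured on whole-transcript arrays in mouse lung myeloid cells that the labels call CD11b+ DCs, gated on the surface proteins CD11c, CD11b and MHC class II. The 8 tumoral arrays hold cells from lung tumours and the 8 peritumoral arrays hold cells from lung tissue beside them. All cells came from C57BL/6 mice carrying orthotopic Lewis lung carcinoma, a transplanted mouse lung cancer line placed in the airways, so no array comes from a tumour-free lung. The labels used here give neither age nor which animals or pools an array came from, so a p-value measures only how these samples spread, and some of that spread may be technical.

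Dendritic cells that sense microbial products or tissue damage mature: they move to lymph nodes, display antigen and secrete cytokines that decide which kind of T cell response follows. IL-12 is a heterodimer of the p35 chain, encoded by Il12a, and the p40 chain, encoded by Il12b, and it drives T helper 1 and cytotoxic responses. The p40 chain also pairs with the p19 chain (Il23a) to make IL-23. IL-15 is held on its receptor alpha chain at the surface of the producing cell and sustains NK cells and memory CD8 T cells. Ccl17 and Ccl22 both bind the receptor CCR4 and draw T helper 2 and regulatory T cells. RelB is an NF-kB subunit needed for dendritic cell development and maturation, and fascin, the product of Fscn1, bundles actin in the dendrites of mature cells.

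Across the 16 arrays, Il12b, Ccl22 and Ccl17 varied far more from array to array than between the labels. Tumoral 1, 4 and 7 and peritumoral 3 and 6, which are columns 9, 12, 15, 3 and 6 of the deposited table, held the 5 lowest values of all 3 genes. This division runs through both labels, and no label describes it. It follows the position in the deposited table, at a step of 3 columns from column 3 to column 15. Whether titles and value columns are correctly matched could not be settled from the files, and every difference between tumoral and peritumoral arrays given here takes the titles as they stand. Il15 had another pattern: it was 0.36 higher on the log2 scale in tumoral than in peritumoral arrays, without passing the test over all genes. Il12a, Relb and Fscn1 differed between the labels by less than their spread within a label.

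Ccl17 and Ccl22 lie on the same chromosome with 1 protein-coding gene, Cx3cl1, between them in the RefSeq annotation of GRCm38.p6. Their promoter windows from RefSeq (GRCm38.p6), 250 bases before to 50 after the start, are shown because both genes moved together across the arrays. Capitals mark matches to letters searched on both strands: GGGA, any 4 bases and CC for NF-kB, and TTAAATA, a stretch chosen after the sequences were seen. Ccl17 is at chr8:94810203-94810502 on the plus strand, and Ccl22 at chr8:94745434-94745733 on the plus strand.
Ccl17: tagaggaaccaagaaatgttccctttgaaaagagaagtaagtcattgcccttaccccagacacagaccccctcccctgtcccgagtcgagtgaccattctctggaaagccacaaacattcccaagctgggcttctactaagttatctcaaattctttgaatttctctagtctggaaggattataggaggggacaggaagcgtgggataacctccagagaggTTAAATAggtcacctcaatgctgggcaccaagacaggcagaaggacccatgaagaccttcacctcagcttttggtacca
Ccl22: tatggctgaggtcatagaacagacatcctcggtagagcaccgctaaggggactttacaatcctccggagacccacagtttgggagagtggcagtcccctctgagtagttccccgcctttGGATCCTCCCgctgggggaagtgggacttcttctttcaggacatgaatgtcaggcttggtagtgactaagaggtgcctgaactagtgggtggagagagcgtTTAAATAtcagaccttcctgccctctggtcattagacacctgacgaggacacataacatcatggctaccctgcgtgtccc

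In both windows TTAAATA begins close to the same place, 29 bases before the start in Ccl17 and 30 bases before it in Ccl22. Of all 32841 windows of this length, 4.51% hold TTAAATA on either strand. The NF-kB letters were found once in Ccl22, on the minus strand 131 bases before the start, and not in the Ccl17 window, against 20.7% of all windows. A window was found for 5 of the 7 genes. Of the other three genes with a window, Il12b and Fscn1 had no match to these letters, and of the 2 windows listed for Il12a the one at chr3:68691174-68691473 held 3 NF-kB matches, 2 of which overlap. GAAA, any 2 bases and GAAA, a form of the interferon-stimulated response element, was found in no window of these 5 genes and in 3.44% of all windows. A match is a description of letters and not a binding site, and a window without a match is not shown to lack a binding site.

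Some arrays stood apart in markers of other cells. In peritumoral 4 the list mean, the average over a list after centring each gene on its 16-array mean, was the highest of all arrays for 9 of 13 cell type marker lists, among them 8 endothelial markers (3.91), 7 NK cell markers (2.13), 8 lung epithelial markers (2.18) and 7 T cell markers (1.28). Peritumoral 7 had the next highest endothelial value (1.54), and the tumoral arrays lay between -0.61 and -0.46. The list mean of 11 neutrophil markers was 1.38 in peritumoral 4 and 1.21 in peritumoral 5, and at most 0.33 in any other array. Peritumoral 5 also had the highest monocyte list mean (0.61). Among genes for the gated proteins, Itgax (CD11c) ran from 11.51 to 11.72 in tumoral and from 11.07 to 11.79 in peritumoral arrays and H2-Ab1 (MHC class II) from 13.10 to 13.38 and from 13.06 to 13.38. Itgam (CD11b) averaged 11.31 ± 0.25 and 11.22 ± 0.50 (SD, n = 8 each). None of these 3 passed in limma (adjusted p = 0.508, 0.818 and 0.888). Array medians over all probe sets ran from 6.75 to 6.95. In sorted populations such as these, fewer cells of a type and less RNA per cell cannot be told apart.

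**Figure D1:**
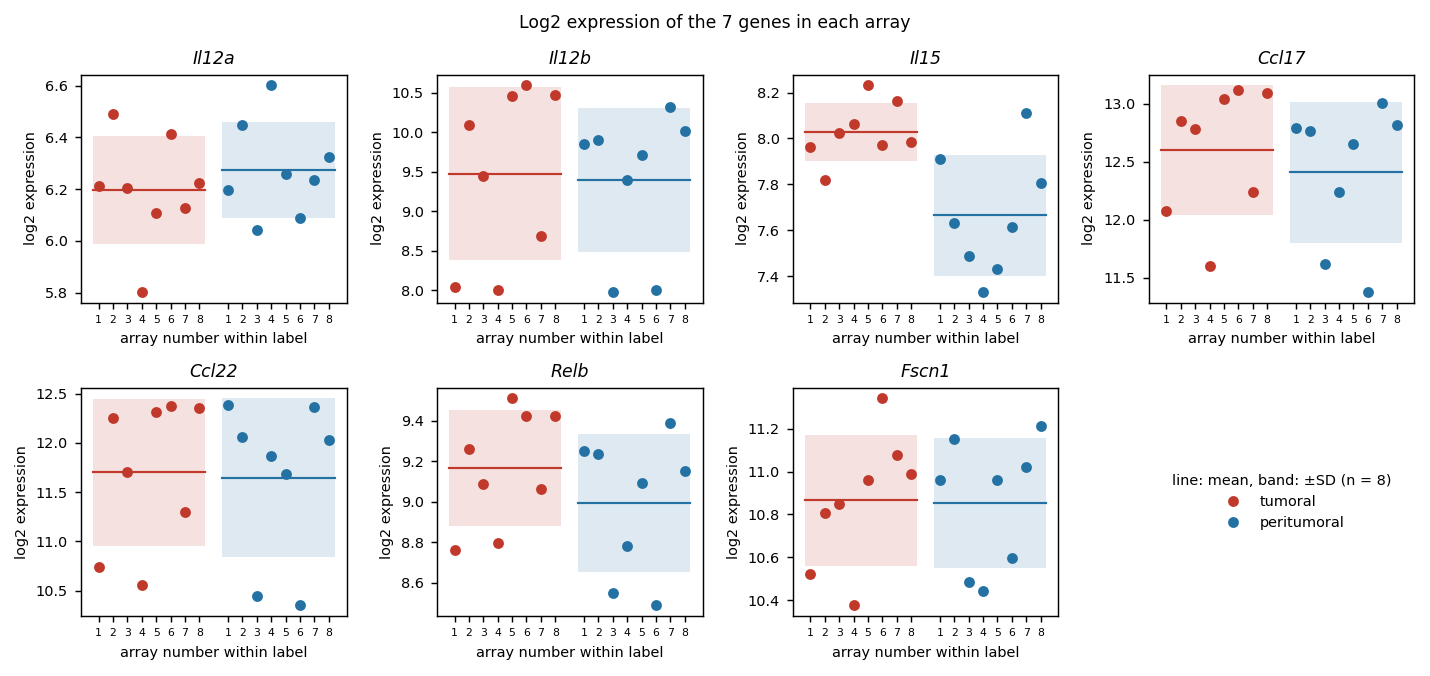
Log2 expression of each of the 7 genes (vertical axis) in tumoral arrays 1 to 8 and peritumoral arrays 1 to 8 (horizontal axis, array number within its label), with the label's mean as a line and ± 1 SD as a band (n = 8). Il12b, Ccl17 and Ccl22 each show low points in tumoral 1, 4 and 7 and peritumoral 3 and 6, and Il15 lies higher in most tumoral arrays.

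Il12b, which encodes the p40 chain shared by IL-12 and IL-23, had the widest range of the 7 genes. It measured 8.04, 10.10, 9.45, 8.004, 10.45, 10.60, 8.69 and 10.48 in tumoral 1 to 8 on the log2 scale. In peritumoral 1 to 8 it measured 9.85, 9.90, 7.97, 9.39, 9.71, 7.997, 10.32 and 10.01. Low values occurred under both labels: tumoral 1, 4 and 7 and peritumoral 3 and 6 reached at most 8.69, and the next array, peritumoral 4, measured 9.39. From the lowest array, peritumoral 3, to the highest, tumoral 6, the level differed 6.18-fold. The labels overlapped over nearly their whole range. Means were 9.48 ± 1.10 in tumoral and 9.39 ± 0.91 in peritumoral arrays, a difference of 0.08 with a 95% confidence interval of -0.87 to 1.04 (limma adjusted p = 0.966). That interval leaves room for a change of about the size of 1 log2 unit in either direction. The low arrays under both labels enter its width, since the label was the only term in the fit.

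Il12a, the gene of the p35 chain that completes IL-12, varied little. Its values ran from 5.80 to 6.49 with a median of 6.21 in tumoral arrays and from 6.04 to 6.60 with a median of 6.25 in peritumoral arrays. The lowest was tumoral 4 and the highest peritumoral 4, and the labels overlapped. Means were 6.20 ± 0.21 and 6.27 ± 0.18 (SD, n = 8 each), a difference of -0.08 (limma adjusted p = 0.788).

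The Il12a value lay below the array's own median on every array and followed it. Over the 16 arrays, Pearson's r between Il12a and the array median was 0.90 and Spearman's rho 0.81. The permutation p-values were 1e-05, the smallest that these permutations can give, for r and 0.00019 for rho, with adjusted values of 7e-05 and 0.00133 over the 7 genes compared with the array median. Without tumoral 4 and peritumoral 4, the arrays farthest from the middle, r was 0.83. Ccl22 and Il12b were the other genes of the 7 to pass by r, with r = 0.61 and rho = 0.61 for Ccl22 (permutation adjusted p = 0.0378 and 0.0441) and r = 0.59 and rho = 0.53 for Il12b (permutation adjusted p = 0.0378 and 0.0860), and 0.57 and 0.59 for r without the same 2 arrays. Since the arrays form separate sets for these 2 genes, r over the other 11 arrays is given too: it was 0.08 for Ccl22 and -0.17 for Il12b (permutation adjusted p = 0.806 and 0.714), against 0.92 for Il12a (permutation adjusted p = 0.00021). The lowest array medians, 6.75 to 6.80, belonged to tumoral 4, 7 and 1 and peritumoral 3, which are 4 of the 5 arrays low in Il12b, and peritumoral 6, also low, had 6.85. After the array median was subtracted, Il12a spanned 0.60 log2 units over all arrays, where it spanned 0.80 before. No detection calls were available, and whether this probe set reads Il12a transcript above background was not tested.

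**Figure D2:**
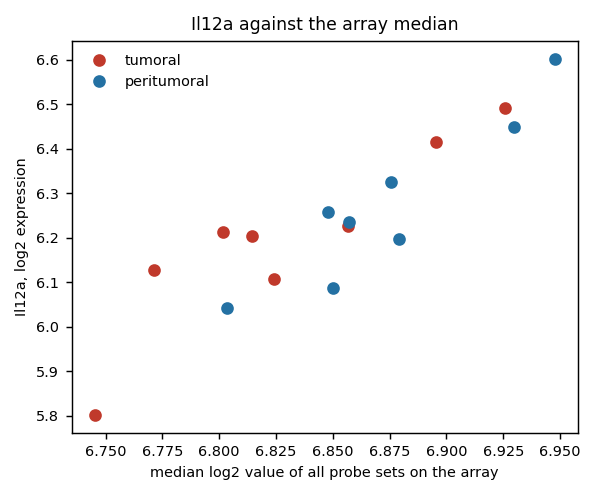
Log2 value of Il12a (vertical axis) against the median log2 value of all probe sets on the same array (horizontal axis), 1 point per array, red for tumoral and blue for peritumoral. Low array medians go with low Il12a, from tumoral 4 (6.75 and 5.80) to peritumoral 4 (6.95 and 6.60).

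Il15, which encodes the cytokine that sustains NK cells and memory T cells, was the gene of the 7 that lay furthest apart between the labels relative to its spread. It measured 7.96, 7.82, 8.02, 8.06, 8.23, 7.97, 8.16 and 7.98 in tumoral 1 to 8. In peritumoral 1 to 8 it measured 7.91, 7.63, 7.49, 7.33, 7.43, 7.61, 8.11 and 7.81. All 8 tumoral values exceeded the median of the peritumoral arrays, and only peritumoral 1 and 7 reached into the tumoral range. The means were 8.03 ± 0.13 in tumoral and 7.66 ± 0.26 in peritumoral arrays (SD, n = 8 each). Their difference was 0.36 with a standard error of 0.10 and a 95% confidence interval of 0.15 to 0.57.

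This Il15 difference did not pass the test over all genes (limma adjusted p = 0.246), and an exact two-sided permutation test of it alone gave an unadjusted p of 0.00466. By limma's unadjusted p it ranked 151 among 19938 genes. Without peritumoral 7 the difference was 0.43 and passed (limma adjusted p = 0.0360), and without peritumoral 7 and 8 it was 0.46 (limma adjusted p = 0.0117). Peritumoral 7 holds the highest peritumoral Il15 value, so leaving it out widens the difference by construction. Peritumoral 8 (7.81) also lies above the peritumoral mean (7.66), so the same holds for leaving out both. Without peritumoral 4, the lowest array and the one with the highest endothelial and lymphocyte markers, it was 0.31 (limma adjusted p = 0.306). Without peritumoral 5, the next lowest array and also high in neutrophil markers, it was 0.33 (limma adjusted p = 0.345). Without tumoral 1, 4 and 7 and peritumoral 3 and 6, the low arrays of Il12b, it was 0.30 (limma adjusted p = 0.773). The part of the other cell types in this difference was not tested.

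Ccl17 and Ccl22, the CCR4 ligands, followed Il12b. Ccl17 measured 12.08, 12.85, 12.79, 11.60, 13.04, 13.12, 12.24 and 13.10 in tumoral 1 to 8. In peritumoral 1 to 8 it measured 12.79, 12.77, 11.62, 12.24, 12.65, 11.38, 13.004 and 12.82. The same 5 arrays were lowest as for Il12b, but without a gap above them, since tumoral 7 and peritumoral 4 both measured 12.24. Means were 12.60 ± 0.56 and 12.41 ± 0.61 (SD, n = 8 each), a difference of 0.19 (95% confidence interval -0.36 to 0.75, limma adjusted p = 0.812).

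Ccl22 measured 10.74, 12.25, 11.70, 10.56, 12.31, 12.37, 11.30 and 12.36 in tumoral 1 to 8. Its peritumoral values were 12.39, 12.06, 10.45, 11.87, 11.68, 10.35, 12.36 and 12.02 for arrays 1 to 8. Here tumoral 7 was the highest of the 5 low arrays at 11.30 and the next array, peritumoral 5, measured 11.68. The range from peritumoral 6 to peritumoral 1 was 4.11-fold, and that of Ccl17 from peritumoral 6 to tumoral 6 was 3.35-fold. Mean levels of Ccl22 were 11.70 ± 0.75 in tumoral and 11.65 ± 0.81 in peritumoral arrays, a difference of 0.05 (95% confidence interval -0.69 to 0.79, limma adjusted p = 0.973).

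**Figure D3:**
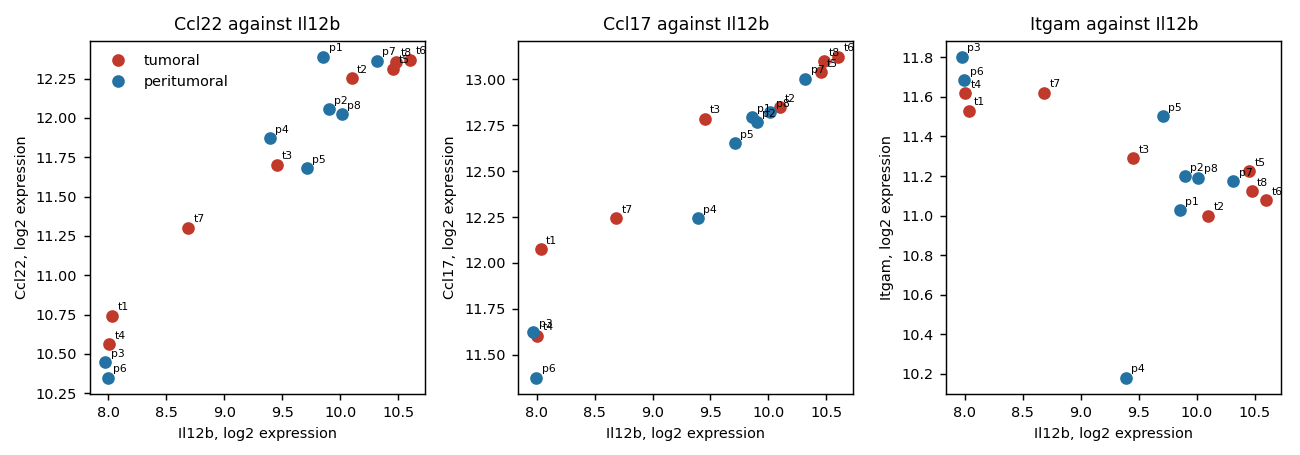
Log2 expression of Ccl22, Ccl17 and Itgam (vertical axes, 1 panel each) against Il12b (horizontal axes), 1 point per array, red for tumoral (t) and blue for peritumoral (p). In the Ccl22 and Ccl17 panels t1, t4, t7, p3 and p6 lie at the lower left, and in the Itgam panel the same 5 arrays lie at the top, with p4 lowest at 10.18.

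Relb, the NF-kB subunit of the alternative pathway, varied in a narrower range. Its values were 8.76, 9.26, 9.08, 8.79, 9.51, 9.42, 9.06 and 9.42 in tumoral 1 to 8, against 9.25, 9.24, 8.55, 8.78, 9.09, 8.49, 9.39 and 9.15 in peritumoral 1 to 8. Peritumoral 6 and 3 were lowest, and peritumoral 4 took the place of tumoral 7 among the 5 low arrays. The labels overlapped, with means of 9.16 ± 0.29 and 8.99 ± 0.34 (SD, n = 8 each) and a difference of 0.17 (limma adjusted p = 0.667).

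Fscn1, the fascin gene often used as a marker of mature dendritic cells, measured 10.52, 10.81, 10.85, 10.38, 10.96, 11.34, 11.08 and 10.99 in tumoral 1 to 8. In peritumoral 1 to 8 the values were 10.96, 11.15, 10.49, 10.44, 10.96, 10.60, 11.02 and 11.21. Tumoral 7, low for Il12b and Ccl22, was among the higher arrays here at 11.08. Means of 10.87 ± 0.31 in tumoral and 10.85 ± 0.30 in peritumoral arrays (SD, n = 8 each) gave a difference of 0.01 with a 95% confidence interval of -0.29 to 0.31 (limma adjusted p = 0.986).

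Of the 7 genes 0 passed at an adjusted p under 0.05 in limma, as did 0 of all 19938 genes (0%). At an unadjusted p under 0.05 there was 1 of the 7, Il15, against 11.5% of all genes, or 5.6% counting only those higher in tumoral arrays. None of the 7 had labels that did not overlap, as 0.0853% of all genes had. In tumoral arrays 6 of the 7 lay higher on average, with a median difference of 0.08, where 41.7% of all genes lay higher and the median difference over all genes was -0.02. That background median depends on the processing. It was 0.02 after centring on array medians and 0.01 among the brighter genes, those with a mean above the median mean. The signs for Il12b, Ccl22 and Fscn1 turned under array weights and when single arrays were left out, and that for Fscn1 also under quantile normalization.

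**Figure D4:**
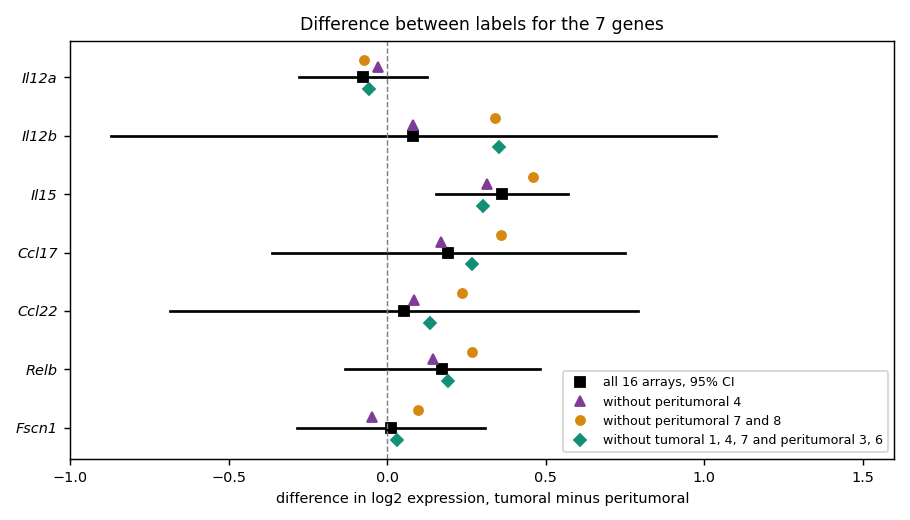
Difference in log2 expression, tumoral minus peritumoral (horizontal axis), for each of the 7 genes. Black squares and lines are the limma estimate and its 95% confidence interval over 16 arrays, and coloured symbols the estimate with arrays left out. Only the interval of Il15 (0.15 to 0.57) leaves out 0.

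Some cell type markers ordered the arrays as Il12b, Ccl17 and Ccl22 did, and others did not. Flt3, the growth factor receptor of dendritic cells, and Zbtb46, a transcription factor of conventional dendritic cells, both chosen after their values were seen, had their 5 lowest values in these arrays. Flt3 reached at most 9.25 there and at least 9.39 in the other 11 arrays, and Zbtb46 at most 7.56 there and at least 7.74 elsewhere. Itgam had its 5 highest values in the same arrays, 11.53 and above, with 11.50 as the next value, in peritumoral 5. The list mean of 10 macrophage markers was 0.47, 0.61 and 0.32 in tumoral 1, 4 and 7 and 0.24 and 0.40 in peritumoral 3 and 6. In the other 11 arrays it ran from -0.76 to 0.25. Of the 13 marker list means, 3 were lower in all 5 of these arrays than in any other: lung epithelium (at most -0.65, against at least -0.11), B cell (at most -0.45, against at least -0.12) and plasmacytoid dendritic cell (at most -0.18, against at least -0.02). The conventional dendritic cell list mean overlapped, at -0.43 to -0.10 in the 5 arrays and -0.34 to 0.28 in the others. H2-Ab1 lay between 13.06 and 13.24 in these 5 arrays and between 13.10 and 13.38 in the others. The part of cell composition in the levels of the 7 genes was not tested.

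Over all genes, these 5 arrays held the 5 lowest values in 717 genes (3.6%) and the 5 highest in 1668 genes (8.37%). Since the arrays were picked from Il12b, Ccl17 and Ccl22, the count of 3 among the 7 genes describes how they were picked. Among 19 NF-kB family genes and regulators 9 had their 5 lowest values there, the subunit genes Rel and Rela, the kinase gene Ikbkb, the inhibitor genes Nfkbia, Nfkbib and Nfkbiz, Bcl3, Tnfaip3 and Birc3. Of 27 maturation and migration genes 7 did, among them Ccr7, the lymph node homing receptor gene, Cd83 and Cd70. Of 11 genes of IL-12 and IL-15 receptors and signalling 3 did, Jak2, Stat3 and Stat5a, and of 12 genes of the CCR4 axis and the IL-4 or GM-CSF response 2 did, Irf4 and Kdm6b. No gene did so among 11 other T cell polarizing cytokines or among 11 IRF and BATF factors. The 5 highest values lay in these arrays for 1 gene of the NF-kB list, the lymphotoxin receptor gene Ltbr, for 1 of the maturation list, Adam8, and for 0 genes of the other four lists. The genes listed here were named by this count and not by the labels.

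Rel, the c-Rel subunit with a known role in Il12b transcription, measured 12.02 to 12.46 in these 5 arrays and 12.65 to 12.97 in the other 11. Irf4, a transcription factor of CD11b+ conventional dendritic cells, measured 8.77 to 9.39 in the 5 and 9.88 to 10.66 in the others. Ccr7 measured 10.99 to 11.90 and 11.94 to 12.38. None of these 3 differed between the labels beyond their spread, with means of 12.64 ± 0.28 in tumoral and 12.60 ± 0.37 in peritumoral arrays for Rel, 10.001 ± 0.694 and 9.96 ± 0.71 for Irf4, and 11.95 ± 0.36 and 11.92 ± 0.56 for Ccr7 (SD, n = 8 each). The division by which these genes were named runs through both labels and enters these SDs. The spread therefore cannot decide whether the labels differ.

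**Figure D5:**
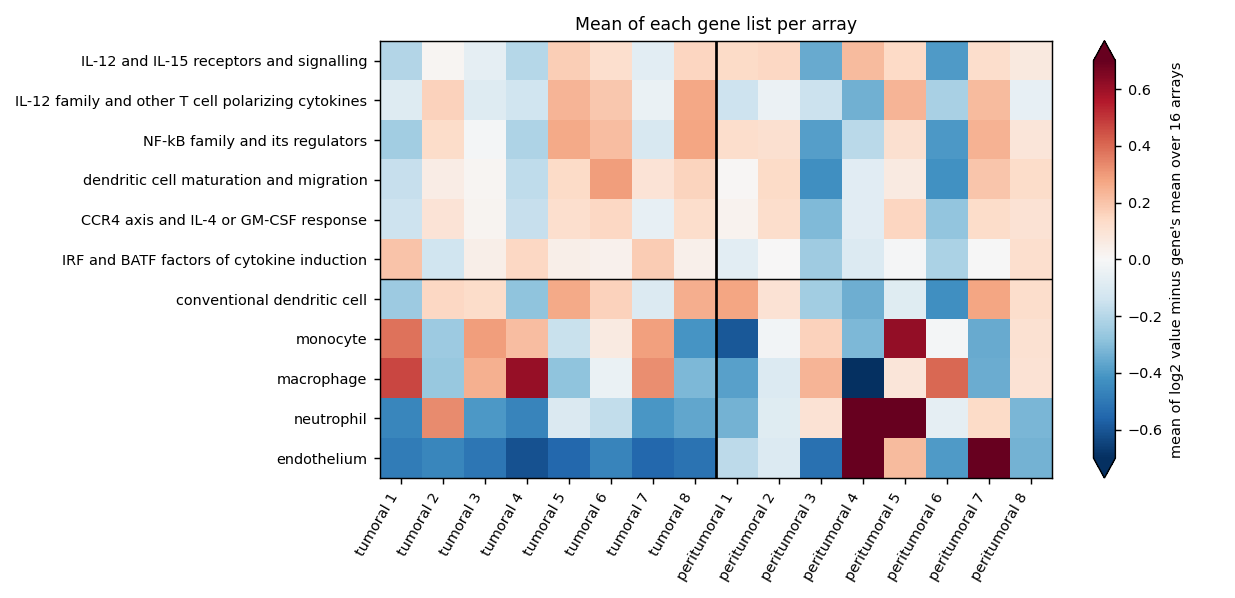
Mean of each gene list (rows) in each array (columns, tumoral left and peritumoral right of the line) as colour: the average over the list of gene values centred on their 16-array means, with colours capped at 0.7. The NF-kB and maturation lists are low in peritumoral 3 and 6 and in tumoral 1 and 4, and the macrophage list is high in these arrays. It is also high in tumoral 7 (0.32) and 3 (0.25), where the maturation list is at 0.10 and 0.02. Peritumoral 4 is low in the NF-kB list (-0.19) and lowest in the macrophage list (-0.76). The endothelial list exceeds the scale in peritumoral 4 and 7, and the neutrophil list in peritumoral 4 and 5.

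Because the arrays formed separate sets for Il12b, correlations between the 7 genes were taken over the other 11 arrays only, after each label's mean was subtracted. These 11 arrays are not uniform. The macrophage list mean ran from -0.76 to -0.26 in tumoral 2, 5 and 8 and peritumoral 1, 4 and 7, also at a step of 3 columns. In tumoral 3 and 6 and peritumoral 2, 5 and 8 it ran from -0.09 to 0.25. Subtracting label means does not remove this, and its part in the correlations was not tested. Of 21 pairs 12 passed a permutation test with Benjamini-Hochberg adjustment, and 9 did so by Spearman's rho. Ccl17 and Relb were the closest pair, with r = 0.94 and rho = 0.75 (permutation adjusted p = 0.00084 and 0.0339, 11 arrays) and r = 0.84 without tumoral 3 and peritumoral 4, the 2 arrays farthest from the middle. Il12b went with Relb (r = 0.89, rho = 0.77, adjusted p = 0.00577 and 0.0339), with Ccl17 (r = 0.85, rho = 0.94, adjusted p = 0.00763 and 0.00189) and with Ccl22 (r = 0.81, rho = 0.75, adjusted p = 0.0132 and 0.0339) by permutation. Without the same 2 arrays these were 0.78, 0.89 and 0.60. Fscn1 and Relb had r = 0.70 (permutation adjusted p = 0.0365) and rho = 0.51 (adjusted p = 0.158), with r = 0.20 without tumoral 3 and peritumoral 4, so that relation rested on those 2 arrays. Without the same 2 arrays r for Ccl17 with Fscn1 fell from 0.82 to 0.50. Without peritumoral 4 and 7, Il15 fell from 0.765 to 0.43 with Ccl17 and from 0.74 to 0.44 with Relb. Ccl22 with Relb did not fall (0.76, and 0.80 without tumoral 3 and peritumoral 5). Il12a and Il15 ran in opposite directions (r = -0.71, rho = -0.75, permutation adjusted p = 0.0365 and 0.0339), with r = -0.46 without tumoral 2 and peritumoral 4. Over the same 11 arrays, without subtracting label means, the array median had r = 0.92 with Il12a. With Il15 it had r = -0.61 (permutation adjusted p = 0.160). The part of the array median in the relation of Il12a and Il15 was not tested. When peritumoral 4 and 7 were left out, 4 of the 21 pairs passed, namely Il12b with Ccl17, Il12b with Relb, Ccl17 with Relb and Ccl22 with Relb.

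The genes whose values ran most like each of the 7 were taken by Pearson's r over all 16 arrays, as a description. The neighbours of Il12b, Ccl17 and Ccl22 divide the arrays as those genes do, with their 5 lowest values in the same 5 arrays, and of the others only Olfr3 does. For each gene r over the other 11 arrays is given second. Il12b ran most like Slc41a1, a magnesium transporter gene (0.99 and 0.91), Tnip3, an inhibitor of NF-kB signalling (0.98 and 0.89), and Wnt11 (0.98 and 0.87). Ccl17 ran most like Jak2 (0.98 and 0.90), Tmem39a (0.98 and 0.91) and Irf4 (0.97 and 0.90). For Ccl22 the genes were Gpr132, a G protein-coupled receptor gene (0.98 and 0.90), Rel (0.98 and 0.86) and the ETS factor gene Etv3 (0.98 and 0.92). Relb ran most like Hivep1, which encodes a zinc finger protein that binds NF-kB-like sites (0.98 and 0.97), Aebp2 (0.98 and 0.94) and Mbtd1 (0.98 and 0.93).

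Il15 ran most like Fxr1, an RNA-binding protein gene, Taok1, a kinase gene, and Cd48, a surface protein of leukocytes, each at 0.93 over 16 arrays and at 0.95, 0.93 and 0.95 over the 11. These lay higher in tumoral arrays without passing: Cd48 differed by 0.36 (limma adjusted p = 0.273), Fxr1 by 0.30 and Taok1 by 0.20. Because r was taken with the label difference left in, a direction shared with Il15 comes with the way they were picked. Fscn1 ran most like Nudt17 (0.94 and 0.97), the vesicle protein gene Syngr2 (0.93 and 0.92) and Mmp25, a membrane-bound metalloproteinase gene (0.87 and 0.84). Il12a ran most like Aldh3a1 (0.96 and 0.92), Robo1 (0.94 and 0.91) and the olfactory receptor gene Olfr3 (0.93 and 0.84). In the 5 arrays low in Il12b these genes reached at most 6.12, 5.97 and 5.39, where the lowest array median was 6.75. Il12a itself followed the array median (r = 0.90), and the part of the array median in these likenesses was not tested.

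Between the labels, genes of the surrounding pathways lay mostly higher in tumoral arrays, and limma called 0 of them after adjustment. Of all 19938 genes 41.7% were higher in tumoral arrays, with a median difference of -0.02 that turned to 0.02 after centring on array medians. An unadjusted p under 0.05 was found for 11.5% of all genes. The counts at that threshold below are to be read against this share. Only the CCR4 list and the IRF and BATF list reached it, with 2 genes each. Of the NF-kB family and its regulators 16 of 19 were higher (median 0.07), and 1, Birc2, had an unadjusted p under 0.05. Birc2, a ubiquitin ligase gene that restrains the alternative pathway, differed by 0.22, Ikbkg, the scaffold of the IKK complex, by -0.22 and Cd40, the receptor for T cell help, by 0.30. Of the maturation and migration genes 22 of 27 were higher (median 0.06), 2 with an unadjusted p under 0.05. These were Marcks, which encodes an actin-binding protein kinase C substrate, at 11.29 ± 0.21 in tumoral and 10.86 ± 0.37 in peritumoral arrays, and its relative Marcksl1 at 10.63 ± 0.46 and 9.94 ± 0.68 (limma adjusted p = 0.283 and 0.339, n = 8 each). Slco5a1, an organic anion transporter family gene, differed by 0.29.

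No partner or receptor gene of the cytokines passed in limma after adjustment. Of 11 genes of IL-12 and IL-15 receptors and signalling 7 were higher (median 0.03), and 0 had an unadjusted p under 0.05. Il2rb, the receptor chain shared by IL-2 and IL-15, measured 5.97 ± 0.14 in tumoral and 6.60 ± 1.10 in peritumoral arrays, with 9.16 as its highest peritumoral value. Stat5b differed by -0.10 and Il12rb2, the signalling chain of the IL-12 receptor, by 0.20. Of 11 other T cell polarizing cytokines 7 were higher (median 0.14), with Tgfb1 at 0.14 and an unadjusted p under 0.05, Il6 at 0.41 and Il27, a cytokine related to IL-12, at 0.09.

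Of 12 genes of the CCR4 axis and the IL-4 or GM-CSF response 8 were higher (median 0.07), and 2 had an unadjusted p under 0.05, in opposite directions. Stat6, the transcription factor of IL-4 signalling that induces both CCR4 ligands, differed by -0.17 and Cish, a suppressor of cytokine signalling, by 0.24, while Klf4 differed by 0.24. Of 11 IRF and BATF factors 9 were higher (median 0.14), 2 with an unadjusted p under 0.05. Irf1, an interferon-induced activator of Il12a and Il15 transcription, measured 10.41 ± 0.16 in tumoral and 10.05 ± 0.41 in peritumoral arrays (SD, n = 8 each), a difference of 0.36 (limma adjusted p = 0.363). Irf2 differed by 0.14 and Irf3 by -0.14.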

How the data were processed

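The authors deposited log2 values of 28853 probe sets on 16 arrays, read as log2 because they run from 2.31 to 14.33. How they were background-corrected and normalized, and to which log base, is not stated in the labels. Per the labels' protocols, total RNA went through a whole-transcript amplification with biotin labelling. Of the probe sets 21789 name 1 symbol in the platform annotation, 1621 several and 5443 none. For each gene the probe set with the highest mean over 16 arrays was kept, which left 19938 genes with no filter on dim values. Labels were taken from titles. The comparison used limma 3.58.1 under R 4.3.3 (label as the only term, two-sided, Benjamini-Hochberg over all genes, threshold 0.05), which was tested on simulated data. The number of arrays limits the precision. For Il12b, Ccl17 and Ccl22 so does the division by column position. It is not a term in the fit and enters their SDs, confidence intervals and p-values.

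The 7 genes, gene lists and alternatives were chosen with earlier results of these data known. Named genes are the 7, the 3 of each pathway list with the smallest limma p, the 3 most like each of the 7, and the sorting markers; genes named by the count over 5 arrays were chosen after their values were seen. Correlations planned over 16 arrays are given over 11, because the arrays form separate sets. Deviations of same-numbered arrays from their label means correlated above 0.1 in 3 of 8 pairs. This cannot decide whether these arrays share animals, because the division by column position also enters the deviations.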

Additional observations from a re-analysis of the deposited data

How the results depend on the processing

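Il15 stayed higher in tumoral arrays under every alternative run here. It passed the threshold without peritumoral 7 and 8 (0.46, limma adjusted p = 0.0117), which brought 1 of the 7 genes and 522 of all genes past it. Both arrays lie above the peritumoral mean of Il15, so leaving them out widens its difference by construction. In the exact permutation tests of the 7 genes Il15 had the smallest p (0.36, unadjusted p = 0.00466). Without peritumoral 4 and 7, 88 genes passed, with Il15 at 0.38 (limma adjusted p = 0.0538). The direction turned to -0.063 for Il12b, -0.049 for Ccl22 and -0.079 for Fscn1 with array weights, and Fscn1 to -0.066 with quantile normalization and -0.030 without peritumoral 4 and 7; the cause was not tested. Leaving out each array in turn, differences ran from -0.12 to -0.02 for Il12a, -0.12 to 0.29 for Il12b, 0.31 to 0.43 for Il15, 0.05 to 0.34 for Ccl17, -0.13 to 0.21 for Ccl22, 0.10 to 0.23 for Relb and -0.057 to 0.081 for Fscn1. In the same runs 0 to 1 of the 7 genes, 0 to 128 of all genes and, at an unadjusted p under 0.05, 1752 to 3302 genes passed. The 128 came without peritumoral 7, and 20 passed without peritumoral 8. The count at an unadjusted p under 0.05 was 2292 over all arrays, 1476 among the genes above the median mean (fewer genes tested; Il12a is not among them) and 1127 without tumoral 1, 4 and 7 and peritumoral 3 and 6, an alternative chosen after the data were seen (fewer samples). Of the 21 pairs of genes 12 correlated over the 11 arrays and 4 without peritumoral 4 and 7. With the replicate number as a block, which the labels do not tie to animals, Il15 differed by 0.36 (limma adjusted p = 0.392) and no call changed; same-numbered deviations correlated between -0.56 and 0.29, and 1 of 8 arrays correlated best with its own number. The medians of the 6 pathway lists kept their direction without peritumoral 4 and 7. Dim probe sets such as that of Il12a have no detection call.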
